A study of Homo sapiens with 3 samples.

Results

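The stretch of chromosome 11 from 65 to 70 Mb (GRCh38) holds 140 protein-coding genes and carried 442 peaks of the forkhead factor FOXM1 in Huh7 cells, an established line of human hepatocellular carcinoma. A member is any peak of either deposited peak list whose summit, the base of highest signal, lies in that range. Replicate 2 gave 199 members of its 8271 peaks and replicate 3 gave 243 of its 11502, which makes 442 of 19773 in all and 38.4% of the peaks of chromosome 11. The stretch was chosen because earlier results from these lists showed many bound genes and a high control signal here, so both are given as descriptions, with no test. Chromatin immunoprecipitation with sequencing was done on untreated Huh7 cells with the anti-FOXM1 antibody G-5, in 2 libraries numbered 2 and 3, and 1 input library was made with no antibody. No library had FOXM1 removed or used another antibody, and the labels do not say whether both libraries came from separate cultures.

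FOXM1, one of the forkhead proteins, is best known as an activator of genes needed to divide, and much of its recruitment to promoters of the cell cycle is known to run through other DNA-binding complexes rather than through forkhead letters alone. The stretch covers much of band 11q13, a gene-dense band known for recurrent amplification in carcinomas, hepatocellular carcinoma among them, around CCND1, which encodes cyclin D1, and FGF19, which encodes a hormone that restrains bile acid synthesis in the liver. DNA copy number was not measured in this series.

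Promoter letters are shown for 8 genes of the stretch, from RefSeq (GRCh38.p14), as the 250 bases before the listed gene start, 5′ to 3′ on the strand of the gene. CNIH2, KMT5B and GRK2 are shown because the summits of both libraries lie inside the printed bases at a high fold enrichment, and ANKRD13D because it has the widest locus of the stretch, with summits on either side of the printed bases. GSTP1, CTSF and RPS6KB2 are the 3 bound promoters with a forkhead match. LTO1 is the bound amplicon gene with the summits of both libraries inside its printed bases. This choice was made after the values were seen. Capitals mark matches, on either strand, to 11 short motifs. Forkhead proteins are known to bind TGTTTA, searched here also in a longer form as GTAAACA. The cell cycle homology region, CHR, was searched in its usual form TTTGAA and in a variant form spelled TTCGAA. General promoter elements were the CCAAT box, spelled as named, and the GC box, a site of SP1 proteins spelled GGGCGG. The remaining motifs were AP-1, the site of the FOS and JUN proteins, spelled TGACTCA, the cyclic AMP response element (CRE), spelled TGACGTCA, the site of ETS proteins, spelled CCGGAAG, the palindrome of NRF1, and the E-box bound by MYC and related proteins, spelled CACGTG. Every GTAAACA match also holds TGTTTA on the opposite strand. A match describes letters and does not mark a binding site. The coordinates are chr11:66277925-66278174 on the plus strand for CNIH2, chr11:68213649-68213898 on the minus strand for KMT5B, chr11:67289053-67289302 on the plus strand for ANKRD13D and chr11:67266223-67266472 on the plus strand for GRK2. They are chr11:67583562-67583811 on the plus strand for GSTP1, chr11:66568607-66568856 on the minus strand for CTSF, chr11:67428244-67428493 on the plus strand for RPS6KB2 and chr11:69675354-69675603 on the minus strand for LTO1.
CNIH2: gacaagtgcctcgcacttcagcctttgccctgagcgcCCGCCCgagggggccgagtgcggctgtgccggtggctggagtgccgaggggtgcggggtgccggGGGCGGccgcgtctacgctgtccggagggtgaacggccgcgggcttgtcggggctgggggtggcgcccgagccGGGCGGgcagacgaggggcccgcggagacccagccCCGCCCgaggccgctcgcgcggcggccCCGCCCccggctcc
KMT5B: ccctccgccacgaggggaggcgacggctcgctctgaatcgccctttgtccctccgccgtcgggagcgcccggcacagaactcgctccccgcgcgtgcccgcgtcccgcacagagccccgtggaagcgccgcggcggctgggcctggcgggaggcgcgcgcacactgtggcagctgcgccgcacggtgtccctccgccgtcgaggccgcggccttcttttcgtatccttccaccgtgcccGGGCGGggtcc
ANKRD13D: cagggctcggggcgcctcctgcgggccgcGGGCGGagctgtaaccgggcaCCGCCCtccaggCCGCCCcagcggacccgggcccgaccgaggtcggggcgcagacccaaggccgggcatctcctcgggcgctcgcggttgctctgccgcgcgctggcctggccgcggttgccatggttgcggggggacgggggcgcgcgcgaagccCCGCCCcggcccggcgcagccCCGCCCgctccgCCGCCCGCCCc
GRK2: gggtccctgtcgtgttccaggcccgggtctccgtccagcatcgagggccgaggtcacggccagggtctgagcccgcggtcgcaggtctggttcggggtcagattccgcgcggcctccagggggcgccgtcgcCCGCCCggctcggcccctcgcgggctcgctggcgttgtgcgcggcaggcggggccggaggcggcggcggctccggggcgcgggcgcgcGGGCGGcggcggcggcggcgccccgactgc
GSTP1: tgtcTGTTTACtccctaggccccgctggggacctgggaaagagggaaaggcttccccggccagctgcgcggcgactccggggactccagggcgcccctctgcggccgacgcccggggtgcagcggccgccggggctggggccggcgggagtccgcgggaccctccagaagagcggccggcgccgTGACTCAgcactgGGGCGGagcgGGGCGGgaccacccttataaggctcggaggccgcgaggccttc
CTSF: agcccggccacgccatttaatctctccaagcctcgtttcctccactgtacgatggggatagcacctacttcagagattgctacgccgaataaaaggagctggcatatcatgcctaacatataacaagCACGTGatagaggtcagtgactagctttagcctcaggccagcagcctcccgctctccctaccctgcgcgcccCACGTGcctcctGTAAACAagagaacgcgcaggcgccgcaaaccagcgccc
RPS6KB2: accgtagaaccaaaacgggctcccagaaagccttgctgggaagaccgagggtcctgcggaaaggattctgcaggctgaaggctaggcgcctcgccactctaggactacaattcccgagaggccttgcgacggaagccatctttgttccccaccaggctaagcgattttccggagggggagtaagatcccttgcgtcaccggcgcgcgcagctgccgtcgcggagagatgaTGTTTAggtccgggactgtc
LTO1: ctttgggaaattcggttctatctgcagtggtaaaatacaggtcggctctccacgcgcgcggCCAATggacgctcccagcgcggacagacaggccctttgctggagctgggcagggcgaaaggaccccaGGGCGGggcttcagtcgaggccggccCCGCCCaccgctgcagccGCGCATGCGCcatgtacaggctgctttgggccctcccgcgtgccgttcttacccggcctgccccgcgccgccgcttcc

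The printed promoters differ in base composition. Guanine and cytosine make up 80.0% of the printed CNIH2 bases, 75.6% of KMT5B, 82.8% of ANKRD13D and 81.2% of GRK2, and the marks in these 4 are GC boxes alone. ANKRD13D holds 7 of them and CNIH2 5. The GSTP1 promoter (GC content 74.8%) opens with a long forkhead match 246 bases before the start and has an AP-1 match at 66. CTSF has the lowest GC content of the 8, 56.4%, with a long forkhead match 39 bases before the start and E-box matches at 123 and 51. RPS6KB2 has the short forkhead match alone, 20 bases before its start. In LTO1 the NRF1 match begins 78 bases before the start, between the summits of replicate 2, at 139 bases, and replicate 3, at 17.

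Each peak in the lists comes with a fold enrichment, a ratio of immunoprecipitated to control signal at the summit, and with −log10 of its p and q values. From the fold and the p value, the number of immunoprecipitated fragments at the summit and the control level set against it (called the background here, in control fragments) could be rebuilt for 100% of the peaks. The control is taken to be the input, since the labels do not name it. The background at the summits had a median of 13 fragments in replicate 2 and 11.7 in replicate 3 in the stretch, against 4.41 and 4.0 in the rest of chromosome 11. Fragments at the summits had medians of 48 and 42 in the stretch and of 25 and 23 in the rest of the chromosome. Both the fragment count and the control level at called summits were thus higher in the stretch, in both libraries. The 2 are not separate, since a peak on a high background needs more fragments to be called. At the lowest −log10 p in the lists, a background of 4 asks for at least 17 fragments in either library. A background of 16 asks for 41 in replicate 2 and 40 in replicate 3. The median fold was lower in the stretch, 2.99 and 2.96 against 3.76 and 3.68.

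The higher background did not cover the stretch evenly. Taking the span from the first to the last peak with a background of at least 8 fragments, a threshold chosen after seeing the data, gives a raised part from the summit at chr11:66238917 to that at chr11:69704803, with 388 of the 442 peaks. Of these, 32 had a background under 8, the lowest at 4.90. The other 54 peaks, in the flanks below and above, had backgrounds of at most 7.0. The median background was 4.0 in both libraries in the lower flank, 14.7 and 13 in the raised part, and 4.08 and 3.79 in the upper flank. The change came between neighbouring peaks. Below, the last flanking peak lies near the start of PACS1, a sorting protein of the trans-Golgi network, with a background of 4.16, and the next summit, 168 kb on, has 10.0. Above, the last raised summits lie beside FGF19, with 10.1 and 10.0, and the next, 69.6 kb on at FGF4, has 3.39. Over the upper 4 Mb of the stretch the medians per 1 Mb were lower toward the upper side, in replicate 2 from 16.4 at 66 to 67 Mb through 15.9 and 11.6 to 9.39 at 69 to 70 Mb, and in replicate 3 from 14 through 14.1 and 11 to 8.88. The last bin includes the upper flank. The 2 highest backgrounds of the stretch, 34 and 33 fragments, both belong to replicate 3, and the second is at RBM4B, which encodes an RNA-binding protein.

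**Figure D1:**
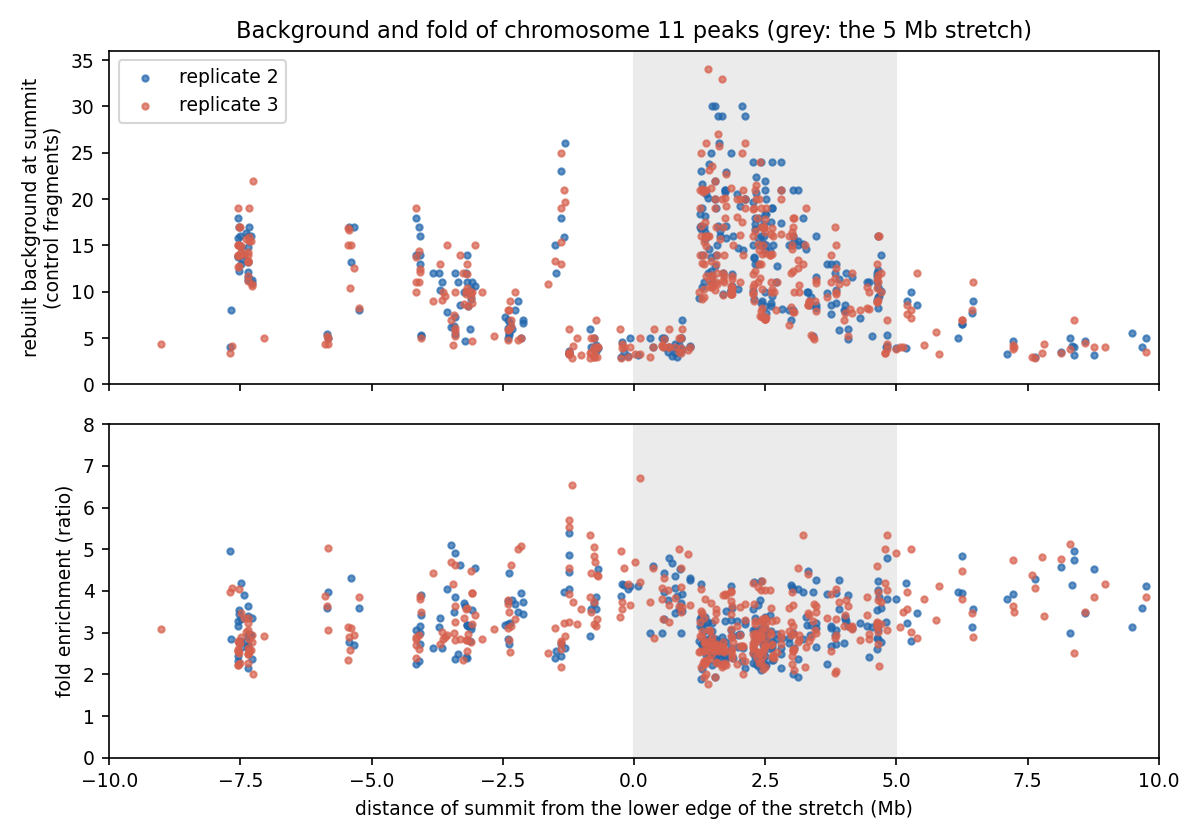
Rebuilt background (top, control fragments) and fold enrichment (bottom, ratio) of each peak on chromosome 11 against the distance of its summit from the lower edge of the stretch in Mb, replicate 2 in blue and replicate 3 in red, with the stretch in grey. Background steps up inside the stretch and falls back before its upper edge, while fold is lowest where background is highest.

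A locus here is a group of peaks of both libraries that overlap by at least 1 bp, and its position is the midpoint between the summits of its best peak in each library. A gene is called bound when that midpoint lies within 1 kb of either of its ends. The stretch held 127 shared loci, 40.6% of the 313 on chromosome 11, with 10.8% of its protein-coding genes (140 of 1301). In the stretch 74 of 140 protein-coding genes were bound, 52.9% (95% exact Clopper-Pearson interval 44.2 to 61.3%), against 11.8% in the rest of chromosome 11 (137 of 1160) and 19.1% over chromosomes 1 to 22 and X (3821 of 19974). These intervals cover counting error only. The raised part held 61 bound genes of 83, 73.5% (62.7 to 82.6%), the lower flank 13 of 55, 23.6% (13.2 to 37.0%), and the upper flank 0 of 2. ANO1, which spans the upper edge, is in none of these counts. Of the 66 genes that were not bound, 38 had no peak of either library at an end, 9 had peaks of replicate 2 only, 14 of replicate 3 only, and 5 had peaks of both that did not meet the rule.

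**Figure D2:**
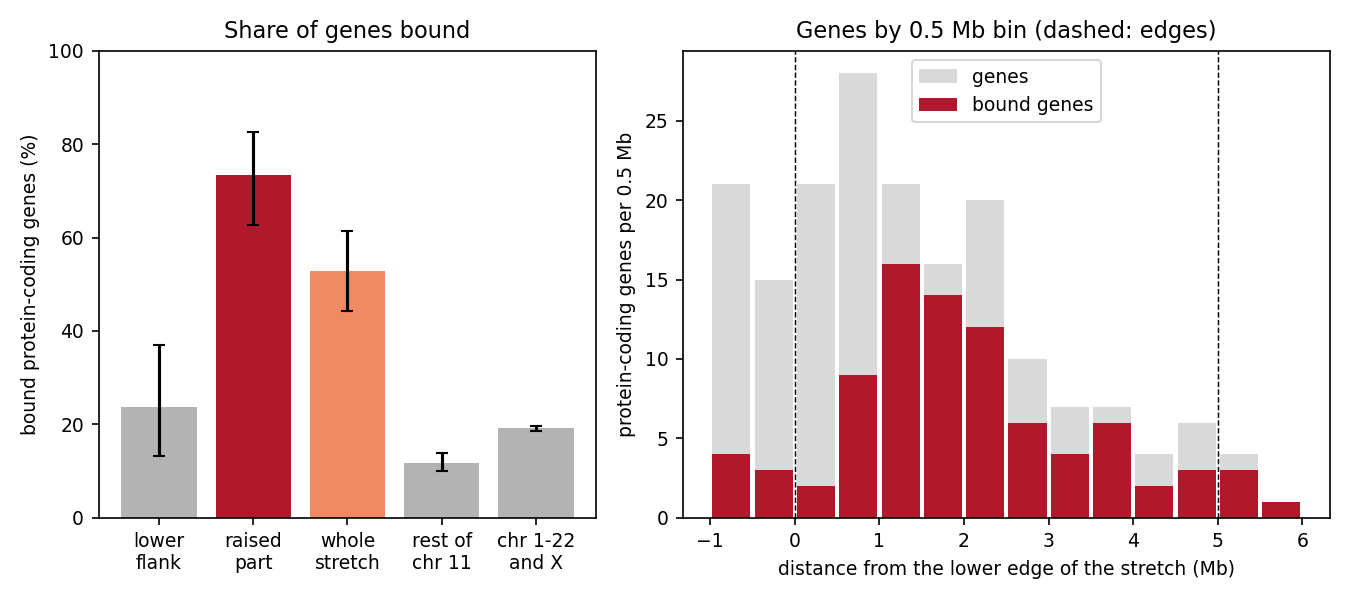
Left, the percentage of protein-coding genes that were bound in each part, bars with 95% Clopper-Pearson intervals; right, all genes (grey) and bound genes (red) per 0.5 Mb against distance from the lower edge of the stretch. Bound genes make up 73.5% of the raised part and 23.6% of the lower flank.

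A peak on a high background needs a lower fold to be called. Per 1 Mb, 22.4% of genes were bound at 65 to 66 Mb, then 81.1%, 60%, 71.4% and, at 69 to 70 Mb, 50%, beside median backgrounds in replicate 2 of 4.0, 16.4, 15.9, 11.6 and 9.39 fragments. The bin of low background had the lowest share, and the order among the others did not follow the background. At the lowest −log10 p in the lists, a background of 4 fragments asks for a fold of at least 3.08 in replicate 2 and 3.15 in replicate 3. At 16 fragments, folds of 2.10 and 2.10 pass. With a fold of at least 3 asked of both libraries everywhere, 28 of 83 genes of the raised part were bound, 33.7%, and 12 of 55 in the lower flank, 21.8% (11.8 to 35.0%). On that rule the share was 9.22% in the rest of chromosome 11 and 15.5% over chromosomes 1 to 22 and X. The raised part thus lay above the rest of the chromosome under both rules, and its distance from the lower flank shrank under the fold rule. A background of 4 already asks for a fold above 3, so that rule could remove few lower-flank genes. With a −log10 q of at least 5 asked instead, the shares were 55.4% in the raised part and 3.64% in the lower flank. In replicate 2 of the stretch, a median fold of 3.91 went with a median −log10 q of 3.81 at backgrounds under 6 fragments. From 15 to under 20 fragments, a median fold of 2.81 went with 5.63. A fixed q is thus passed at lower folds where the background is high, so that rule favours the raised part. What part the background has in the bound share beyond this was not tested. Genes with a listed start in the RefSeq promoter table gave a similar picture: 49 of 95 in the stretch had a shared summit within 1 kb of the start, 51.6%, with 42 of 52 in the raised part (80.8%) and 7 of 42 in the lower flank (16.7%), against 11.7% in the rest of chromosome 11 and 19.1% over chromosomes 1 to 22 and X.

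Peaks were also set beside peaks of like background elsewhere on all chromosomes. With a background under 6 fragments the median folds in the stretch were 3.91 in replicate 2 and 4.02 in replicate 3, against 4.04 and 3.96 outside. From 6 to under 10 they were 3.09 and 3.17 against 3.29 and 3.17. From 10 to under 15 fragments they were 3.0 and 2.75 against 2.77 and 2.69. From 15 to under 20 fragments they were 2.81 and 2.75 against 2.55 and 2.60, over 51 and 52 peaks of the stretch and 42 and 42 outside. At like backgrounds the medians of the stretch thus lay below or near those outside under 10 fragments, and slightly above them from 10 to under 20. From 20 fragments on, the medians were 2.47 and 2.58 in the stretch (35 and 28 peaks) and 2.37 and 2.17 outside (32 and 36 peaks). This class has no upper limit, so its backgrounds need not be alike. Immunoprecipitated fragments at its summits had medians of 68 and 72.5 in the stretch and of 86.5 and 83 outside.

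**Figure D3:**
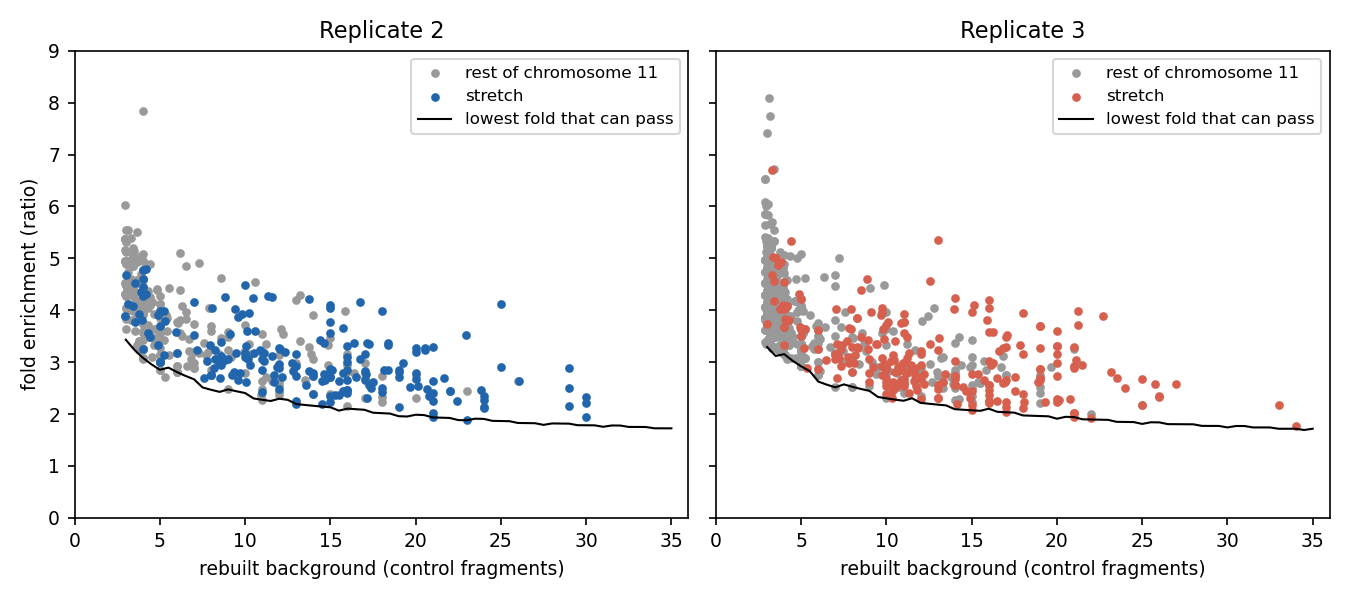
Fold enrichment (ratio) against rebuilt background (control fragments) for each chromosome 11 peak in replicate 2 (left) and replicate 3 (right), with the stretch in colour and the rest of the chromosome in grey. The black line is the lowest fold that passes at each background, and the peaks of the stretch spread along it to the right, beyond the background of most grey points.

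The single highest −log10 q value of each library came from the raised part. The highest −log10 q on chromosomes 1 to 22 and X in replicate 2 was 26.1, at neighbouring ends of RCE1, the protease that trims prenylated proteins, and TOP6BL, known for initiating meiotic recombination. Replicate 3 gave 19.9 there, from 101 fragments over a background of 21.2, with 125 over 25 in replicate 2. The folds were 4.12 and 3.99. The summits at RCE1 lay 4 bp before the listed start in replicate 2 and 79 bp after it in replicate 3. In replicate 3 the highest value on those chromosomes was 23.7, at KMT5B, a methyltransferase of histone H4, where replicate 2 gave 16.6. KMT5B had 88 and 85 fragments over 18 and 13 and folds of 3.98 and 5.35, with the summits inside the printed promoter, 50 and 76 bp before the start. Of the peaks with a −log10 q of at least 15 on chromosomes 1 to 22 and X, 4 of 15 in replicate 2 and 9 of 26 in replicate 3 lay in the stretch. Of all peaks, the stretch held 199 of 8271 and 243 of 11502. At a given fold, −log10 q is higher where the background is higher, so high values here go with the raised background.

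Other loci among those of the stretch with the highest lower −log10 q of both libraries lie at gene ends. The locus between RAB1B, a small GTPase of transport from the endoplasmic reticulum to the Golgi, and CNIH2, an auxiliary subunit of AMPA receptors, had −log10 q of 17.1 and 15.1 (86 and 78 fragments, folds 4.16 and 4.05). Its summits lay 176 and 159 bp before the listed start of CNIH2. ANKRD13D, an ankyrin-repeat protein that binds ubiquitin, had 14.7 and 14.3 (72 and 84 fragments, folds 4.21 and 3.70) across the widest locus of the stretch, 2027 bp, with summits 118 bp after the start in replicate 2 and 612 bp before it in replicate 3. These loci were picked by the lower value of both libraries, so high values in both follow from that choice.

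Ranked by the lower fold of both libraries, the first locus was in the lower flank, 107 bp inside TIGD3, a gene derived from a transposase. It lay 596 bp past the higher end of DPF2, a subunit of BAF chromatin remodellers. Its folds were 4.61 and 4.54 from 26 and 25 fragments over a background of 4.0 and 4.0. Next came an LRP5 locus with folds of 4.49 and 4.40 from 57 and 47 fragments. LRP5, a co-receptor of Wnt, is not counted as bound, since this locus lies 14446 bp from an end of its gene record, yet the summits are 271 and 264 bp after its listed start. CHKA, which makes phosphocholine, had folds of 4.04 and 4.56 (75 and 70 fragments), and CARNS1, which makes carnosine, 4.25 and 4.02 (48 and 40 fragments). FAM89B and ZNRD2 share a lower-flank locus with folds of 3.98 and 4.31 from 27 and 28 fragments. UNC93B1, a chaperone of endosomal Toll-like receptors, had 4.09 and 3.97 from 76 and 72 fragments. Of the 10 loci of highest lower fold, the 2 in the lower flank rested on 25 to 28 fragments a library and the 8 in the raised part on 40 to 125. No shared locus of the stretch reached 5 in both libraries, against 5 in the rest of chromosome 11. A lower fold of at least 4 was reached by 5 of 127, 3.94%, against 31.7%.

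In the lower flank, with backgrounds like the rest of the chromosome, 13 genes were bound on 10 loci, among them DPF2, TIGD3, FAM89B, ZNRD2, AP5B1, RELA, SF3B2, PACS1, C11orf68, DRAP1, CFL1 and CCDC85B. RELA, the p65 subunit of NF-κB, had a locus beside each end. The one with the higher lower fold had folds of 3.78 and 4.02 (19 and 22 fragments). The other had summits 853 and 766 bp after its listed start, with folds of 4.78 and 3.68 (27 and 20 fragments). SF3B2, a splicing factor, and PACS1 share a locus with folds of 4.27 and 3.68, with summits 337 and 209 bp before the start of PACS1. CFL1, the actin-severing protein cofilin, had 3.56 and 3.64 with the summits 257 and 237 bp after its start. With a −log10 q of at least 5 asked of both libraries, 3.64% of the lower-flank genes were bound.

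Of the 8 genes known from the 11q13 amplicon, ANO1 included, 4 were bound, close to the 52.9% of all genes of the stretch. CCND1 had 2 shared loci at its lower coordinate end and 7 in all, from 4462 bp below that end to 1871 bp above it. The highest at its end had 48 fragments over 9.39 in replicate 2 and 45 over 9.09 in replicate 3, with folds of 4.02 and 3.97. The 7 loci had folds from 2.61 to 4.23 in replicate 2 and from 2.72 to 4.60 in replicate 3. These separate loci lie over the upstream side and first part of CCND1, and each holds peaks of both libraries by definition.

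FGF19 had folds of 3.60 and 3.72 from 46 and 46 fragments. TPCN2, a cation channel of endolysosomes, had 3.27 and 3.78 from 49 and 51. LTO1, which helps deliver iron-sulfur clusters to a ribosome recycling factor, had 3.86 and 2.21 from 47 and 42, the fold of replicate 3 resting on a background of 16 against 9.58. Among the others, FGF4 had peaks of replicate 3 only, the highest at 5.02 over a background of 3.35. FGF3 had peaks of both libraries at its start that did not overlap, and a shared locus inside the gene with 3.8 and 5.34 from 27 and 32 fragments. FGF3 and FGF4 both lie in the upper flank. MYEOV had no peak at an end in either library. ANO1, a calcium-activated chloride channel, had no peak at an end of its record, and a shared locus with 3.82 and 4.92 inside it that overlaps its listed start. The 4 bound amplicon genes all lie in the raised part, where MYEOV was the other list member. The nuclear-retained RNA genes NEAT1 and MALAT1, with TALAM1 and MASCRNA, had no peak in either library, within them or at an end. They lie in the lower flank.

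The other lists of genes, grouped by known function, are read against the 52.9% of the whole stretch and, since most members are in the raised part, against its 73.5%. Of mitochondrial, metabolic and detoxification genes 13 of 16 were bound, all 16 lying in the raised part, with a median lower fold of 2.74. GSTP1, which conjugates glutathione, had folds of 3.43 and 4.02 from 61 and 68 fragments, with summits 171 bp after the start in replicate 2 and 136 bp before it in replicate 3. PC, pyruvate carboxylase, had 3.28 and 3.15, and MRPL21, of the mitochondrial ribosome, 4.27 and 3.75 at a locus it shares with the helicase gene IGHMBP2. Of RNA binding and splicing genes 8 of 10 were bound, median 2.82, among them SF3B2, IGHMBP2 and MRPL21. Cytoskeleton and membrane traffic genes gave 11 of 15, median 3.28, among them RAB1B, PACS1 and CFL1. RAB1B and SF3B2 rank by loci outside their higher ends, which lie before the listed starts of their neighbours CNIH2 and PACS1. All 6 genes of phosphatases and cell growth were bound, median 2.71. CCND1 and PPP6R3, a regulatory subunit of protein phosphatase 6 with 4.26 and 3.49, were highest, ahead of CDK2AP2 (2.85 and 2.87). The 6 all lie in the raised part. Counting only members in the raised part, these 4 lists gave 13 of 16, 6 of 6, 9 of 11 and 6 of 6 bound, against its 73.5%. Each list has few members.

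Of the remaining lists, 2 have about as many members in the flanks as in the raised part. Signalling genes gave 6 of 13, of which 5 of 7 in the raised part, median 3.24, with UNC93B1, RELA, GRK2 (3.56 and 4.20, 66 and 81 fragments) and PELI3 (2.91 and 3.72) highest. GRK2 phosphorylates active G-protein-coupled receptors, and its summits lay 170 and 130 bp before its start. Chromatin, transcription and repair genes gave 7 of 15, of which 6 of 8 in the raised part, median 2.85: KMT5B, DRAP1 (3.94 and 3.62), KDM2A, a demethylase of histone H3 (3.28 and 3.70), and CDK2AP2 were highest. Of genes known mainly from other tissues 5 of 19 were bound, 26.3%, although 13 of the 19 lie in the raised part. These were CNIH2, LRFN4 (3.60 and 3.63, at a locus 2948 bp after its listed start), GAL, the neuropeptide galanin (3.93 and 3.36), MRGPRF (3.34 and 3.42) and NPAS4. No expression was measured here, so which of these genes are active in Huh7 cells is not known from these data. Genes that share a locus are not independent: the 74 bound genes rest on 64 loci, and 20 of them share one with another bound gene.

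Positions and folds were then compared between the libraries. Of the peaks of the stretch, 71.4% in replicate 2 and 56.0% in replicate 3 belonged to a shared locus, against 67.5% and 45.6% in the rest of chromosome 11. The summits of both libraries lay within 100 bp of each other at 82 of 127 loci, 64.6%, against 52.7%. Fold was higher in replicate 3 at 75 loci and in replicate 2 at 52, with a median ratio of 1.03 and a range from 0.571 to 1.57. The lowest ratio is that of LTO1.

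**Figure D4:**
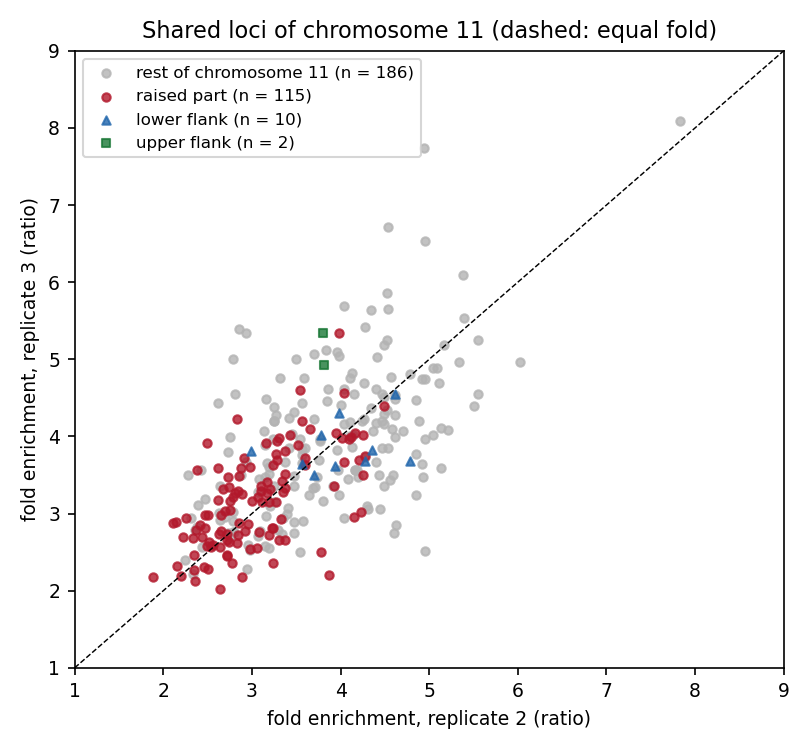
Fold enrichment (ratio) in replicate 3 against replicate 2 for each shared locus of chromosome 11, by part, with the dashed line at equal fold. Loci of the raised part sit mostly between 2 and 4 in both libraries, and 5 of the 127 loci of the stretch exceed 4 in both.

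By position, 77 of the 127 loci were at an end of a protein-coding gene, 60.6% (51.6 to 69.2%), against 67.7% in the rest of chromosome 11. A further 31 lay inside such genes away from the ends, 7 at ends of other genes only and 12 elsewhere, 9.45% against 3.76%. Ends here are those of the gene record. Among the loci inside genes, those of LRP5, ANO1, NPAS4 and PITPNM1 nearest a listed start lie within 1 kb of it. Of the 50 loci away from protein-coding ends, 48 were in the raised part and none in the lower flank. The raised part held most of all 127 loci, however, and the lower flank held few. Loci away from ends were narrower than those at ends (median 350 against 607 bp), with a median lower fold of 2.75 against 2.95. Among those inside genes the highest, after LRP5, were at CPT1A, which carries long-chain fatty acids into mitochondria (3.95 and 4.05), at ANO1 and FGF3 as above, and at ALDH3B1, an aldehyde dehydrogenase (4.04 and 3.66). Of the loci, 54 were at least 600 bp wide, 42.5% against 22% in the rest of chromosome 11. Those 54 were all in the raised part, where most loci of the stretch lie. The median width was 528 bp against 394.

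Around the listed gene starts of RefSeq, 51 of the 127 loci had their position, the midpoint of both summits, within 1 kb, from 913 bp before the start to 809 bp after it. They fell 24 before the start and 27 at or after it, and 23 lay from 250 bp before to 50 bp after. The summits of the libraries themselves had median offsets of 98 bp after the start in replicate 2 and 42 bp in replicate 3, and both lay within 500 bp of the start at 44 loci and within 100 bp at 10. SSH3, a cofilin phosphatase, had summits 110 bp before the start in replicate 2 and 97 bp after it in replicate 3, with folds of 3.35 and 3.28.

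**Figure D5:**
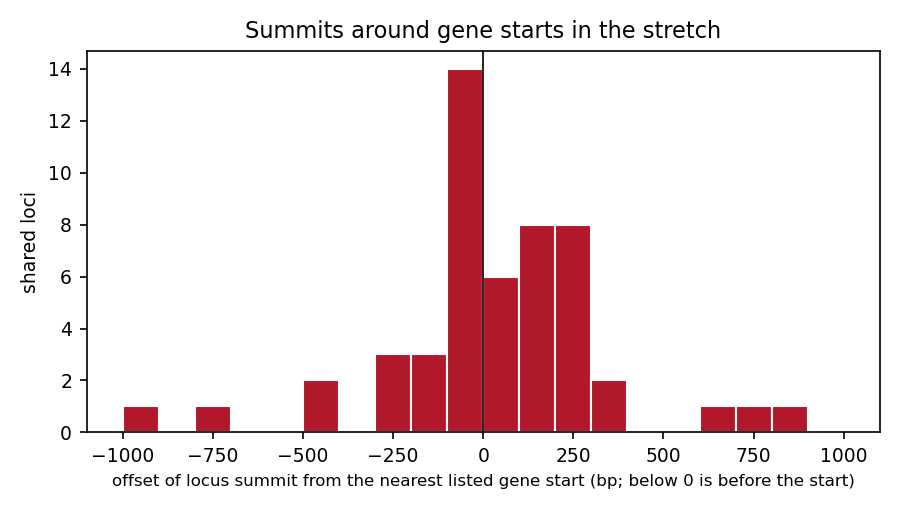
Number of shared loci of the stretch by the offset of the midpoint of both libraries' summits from the nearest listed gene start (bp, below 0 is before the start), in bins of 100 bp, for the 51 loci within 1 kb. Most midpoints lie within 300 bp on either side of the start.

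The promoter table held 95 of the 140 genes, each with the 300 bases from 250 before to 50 after the start. Bound promoters of the stretch had a median GC content of 70.7% (n = 49), the unbound ones 65.5% (n = 46), the bound ones of the rest of chromosome 11 72.5% (n = 100) and all 15812 promoters 62.7%. The GC box was in 36 of the 49 bound promoters, 73.5%, against 65.2% of the unbound ones in the stretch, 58.5% of all promoters and 84.1% of all 3014 promoters bound on chromosomes 1 to 22 and X. The short forkhead match was in 3 of 49, 6.12%, against 8.95% of all and 4.15% of all bound, and the longer one in 2 of 49, 4.08%, against 2.62% and 1.96%. The CHR letters TTTGAA were in 6.12%, against 12.1% of all and 5.74% of all bound, TTCGAA in 0 of 49 against 1.56% and 1.09%, and CCAAT in 34.7% against 36.3% and 31.0%. ETS was in 14.3%, against 14.2% and 14.9%, and in 28.3% of the unbound promoters of the stretch. With 49 promoters, a share of a few percent rests on 1 to 3 of them. AP-1 (4.08% against 3.67%), CRE (4.08% against 2.59%), NRF1 (2.04% against 1.76%) and E-box (6.12% against 8.87%), each against all promoters, were each in at most 3 promoters. Of the 3 forkhead-bearing promoters printed above, GSTP1 had the highest lower fold, CTSF, a cysteine cathepsin, had 2.85 and 3.48, and RPS6KB2, a ribosomal S6 kinase, had the lowest of any bound gene in the stretch, 2.11 and 2.87.

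A further 164 peaks had no partner in the other library, 57 in replicate 2 and 107 in replicate 3, with median folds of 3.03 and 2.81. The highest in replicate 2 were at FGF3 (4.80), RNASEH2C, a subunit of RNase H2 (4.68), and EFEMP2, an extracellular matrix protein (4.53). In replicate 3 they were near TM7SF2, a sterol reductase of cholesterol synthesis (6.71), FGF4 (5.02) and MUS81, a nuclease of homologous recombination (5.01). All 6 lie in the flanks, over backgrounds of 3.02 to 4.16 fragments. The peak at TM7SF2 had 32 fragments in replicate 3 and no partner in replicate 2. At the edges, the first peak inside, at 65014430, had a fold of 4.68 over 3.29 and the nearest outside, at 64924721, 3.68 over 4.0. The last inside, at 69985832, had 4.92 over 3.79 and the nearest outside, at 70068081, 3.14 over 4.03. The 4 are all from replicate 3, and neither edge of the range coincides with a change in background.

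Raised backgrounds were also found elsewhere. In the rest of chromosome 11, 152 of 708 peaks had a background of at least 8 fragments, against 356 of 442 in the stretch. They lay mainly in 53 peaks from 57324857 to 57741360 (median 14), 11 from 59550460 to 59755561 (median 15) and 71 from 60841991 to 63681751 (median 12). Among 368 windows of 5 Mb with at least 20 genes over chromosomes 1 to 22 and X, the stretch ranked 1 by shared loci, 6 by the share of genes bound, and 2 by median background among the 275 windows with at least 20 peaks. Of the 27 other windows with at least 100 genes, the bound share ran from 1.69 to 41.3% with a median of 14.5%. The one with the highest median background, 13.9 fragments, was on chromosome 11 from 55 to 60 Mb, where 9.73% of 113 genes were bound. Its peaks lay almost all at 57 to 58 Mb, where 34.8% of 23 genes were bound, and at 59 to 60 Mb, where 13% were. At 61 to 62 Mb, with a median background of 10.1 and 9.64 fragments, 61.5% of 26 genes were bound.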

How the data were processed

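Chromatin immunoprecipitation libraries and 1 input of untreated Huh7 cells are the samples. The authors deposited a peak list and a summit list per immunoprecipitated library. CASAVA 1.4, BWA, MACS2 2.2.7.1 and GRCh38 are named, with no role or order, per the submitters' processing notes. The input has no peak list here. In the deposited lists the ratio is a fold enrichment at the summit, the −log10 values are of p and q (none under a −log10 q of 1.31), the peak score was not used, and the summit offset gives the position. The fold, p and q of each peak are the authors' own values, and each library was called separately. Total reads per library are not given in the sources used here, so absolute depth is known only as the fragments at each summit. Relative to the control, the scale described below puts depth at 1.18 in replicate 2 and 1.15 in replicate 3.

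The scale between library and control (0.848 in replicate 2, 0.869 in replicate 3) was searched so that fragment count and background, with a pseudocount of 1 in the fold, give back each −log10 p within 0.001, which held for 100% of the peaks of each list. With the scale given, the method recovered known values on simulated data. The search for the scale was not part of that simulation. Peaks overlapping by at least 1 bp across libraries were joined into shared loci, and genes were taken from RefSeq (19974 protein-coding records) with a window of 1 kb around each end. Intervals are exact Clopper-Pearson at 95% and cover counting error only. Python 3.11.15, pandas 2.3.3, SciPy 1.17.1 and matplotlib 3.10.9 were used.

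The stretch and the lists were chosen with earlier results of these data known, and the raised part after seeing the data. Named genes are the 10 with the highest lower fold, up to 4 bound members of each of 9 lists, the loci with the 10 highest lower folds and 5 highest lower −log10 q, all amplicon genes, NEAT1 and MALAT1, the 3 single-library peaks of highest fold per library and the edge peaks. Genes named besides these were chosen after their values were seen, and a few items that the rule would name are not reported here. With 2 libraries of 1 group no test over samples is possible. Alternatives were stricter −log10 q or fold, overlap and summit rules, window sizes, other edges and leaving out either library. Sequences of peaks were not read, as no genome was used here.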

Additional observations from a re-analysis of the deposited data

How the results depend on the processing

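The choices below were each changed alone, and none reversed a direction. The 127 shared loci became 59 with a −log10 q of at least 5 and 54 with a fold of at least 3, and peaks of 1 library alone numbered 199 to 243. The bound share of the stretch, 52.9%, was 34.3% with the q rule, 28.6% with the fold rule, 38.6% with summits within 100 bp, 41.4% with 50% reciprocal overlap, 71.6% for 66 to 69 Mb, 64.3% with a window of 5 kb, and 62.9 to 66.4% from either library alone. Its excess over the rest of chromosome 11, 41.0 points, was 31.6 with the q rule, 19.3 with the fold rule, 32.0 with close summits, 59.1 for 66 to 69 Mb, and 44.3 to 46.0 from 1 library. The ratio of median backgrounds, 2.98, was 3.73 with the q rule, 2.44 with the fold rule, 2.76 for 64 to 71 Mb, 3.41 for 66 to 69 Mb, and 2.92 to 2.95 from 1 library. The difference in median lower fold, -0.65, was -0.32 with the q rule, -0.30 with the fold rule, -0.61 for 64 to 71 Mb, -0.74 for 66 to 69 Mb, and -0.77 to -0.72 from 1 library. The share of loci at protein-coding ends, 60.6%, was 74.6% with the q rule, 50.4% with 500 bp, 81.1% with 5 kb, 40.2% at gene starts only, and 47.7 to 57.3% from 1 library.

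For the raised part, a span chosen after seeing the data, the bound share of 73.5% was 55.4% with the q rule, 33.7% with the fold rule, 56.6% with close summits, 60.2% with reciprocal overlap, 84.3% with 5 kb, and 79.5 to 83.1% from 1 library. For the lower flank, 23.6% became 3.64% with the q rule, 12.7% with close summits, and 38.2 to 40.0% from 1 library. Of the 74 bound genes, 48 remained bound with the q rule, 40 with the fold rule, 54 with close summits, 58 with reciprocal overlap and 65 with 500 bp. At starts only, 47 remained, but that rule can count only the 95 of 140 genes with a listed start. The causes were not tested, beyond the fewer peaks that stricter rules leave.

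No paired analysis was possible because only 1 group had peaks and no result compares groups of samples. Total reads are unknown, and the number of fragments at each summit limits the precision of single peaks.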
